A study of Rattus norvegicus with 24 samples.

Results

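Txnip and Arrdc4 are 2 of the 32883 genes counted in cultured rat oligodendrocyte precursor cells (OPCs) and oligodendrocytes (OLs), and they were followed here through all 6 conditions of the study. They were chosen by name, as a pair of related genes, because both were among the genes that fell most in OLs treated with dolutegravir (DTG) against OLs treated with the vehicle dimethyl sulfoxide (DMSO). For these 2 genes, that contrast and every other contrast that uses its libraries are therefore given as a description with no test. The response of the pair in OPCs and its change between untreated OPCs and untreated OLs rest on other libraries and were tested.

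The cells came from the cerebral cortices of newborn Sprague Dawley rats and were purified as precursors by shaking them off mixed glial cultures. DTG is an integrase inhibitor used against HIV. Untreated, DMSO-treated (0.04%) and DTG-treated (8 µM) OPCs were collected after 24 hours in a proliferation medium with fibroblast growth factor, platelet-derived growth factor and neurotrophin 3. Untreated, DMSO-treated and DTG-treated OLs had the same 24 hours and then 72 hours in a differentiation medium, with the treatment present throughout. Each condition has 4 libraries, and by the methods replicates are cultures from independent litters. Libraries with the same number carry the same date code and are set side by side as pairs below. The main tests did not use this pairing, which entered only as an alternative, with the replicate number as a block. No source states that a number marks a litter, and replicates 2 and 3 share a date. The OL medium is listed with 0.3% glucose, insulin and thyroxine, so cell stage and medium cannot be told apart, and no condition varied glucose within a stage. Gene counts per library ran from 13241279 to 18499994. The medians were 14874094 in untreated, 13975765 in DMSO-treated and 15965473 in DTG-treated OPCs, and 16329401, 15719162 and 15280548 in untreated, DMSO-treated and DTG-treated OLs.

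Txnip encodes thioredoxin-interacting protein, which binds the reduced form of the redox protein thioredoxin. It and Arrdc4 belong to the alpha-arrestins, adaptor proteins that link membrane proteins to ubiquitin ligases of the Nedd4 family, and both are known to lower glucose uptake by removing glucose transporters from the cell surface. Their genes are well known targets of MondoA and ChREBP, transcription factors that bind DNA with Mlx when glucose phosphates accumulate in the cell, at elements built from E-boxes. Oligodendrocytes use glucose both for energy and for the lipids of myelin.

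In the annotation of 22 libraries, for which the labels name Rnor_6.0, Txnip (ENSRNOG00000021201) lies on the plus strand of chromosome 2 from 198683159 to 198686974, in 8 exon blocks with 2757 exonic bases. Arrdc4 (ENSRNOG00000010775) lies on the minus strand of chromosome 1 from 129766100 to 129780356, in 9 exon blocks with 4287 exonic bases. No other gene of that annotation overlaps either of them (0 for each). The files of replicate 3 of the untreated OPCs and of the untreated OLs use another annotation, in which the exonic lengths are 2775 and 3886 bases. Its coordinates differ too, from 184092991 to 184096886 for Txnip and from 122369360 to 122383290 for Arrdc4. The genome build of these 2 files is therefore uncertain. Of the identifiers in both annotations, 20.9% have equal exonic length. Only the 21651 gene identifiers found in both annotations entered comparisons with untreated cells.

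The sequence before the Arrdc4 gene is shown because E-boxes, and the CCAAT boxes bound by the factor NF-Y, are known to lie together in promoters that answer to glucose. RefSeq's promoter table for the build GRCr8 held 1 of the 2 genes, Arrdc4 and not Txnip. The 237 bases before the annotated gene, chr1:131793439-131793675 on the minus strand, read 5′ to 3′ as follows, with the motif matches in capitals.
Arrdc4: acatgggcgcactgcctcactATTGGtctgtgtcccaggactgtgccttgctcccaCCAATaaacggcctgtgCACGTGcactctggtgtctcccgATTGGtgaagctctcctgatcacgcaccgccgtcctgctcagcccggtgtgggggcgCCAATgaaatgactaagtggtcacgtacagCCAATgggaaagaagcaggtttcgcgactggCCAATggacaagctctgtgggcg

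The E-box CACGTG, which is its own reverse complement, occurs 1 time in this window, starting 164 bases before the gene. Of 33469 windows of the same length in the table, 1770 (5.29%) held it. CCAAT occurs 6 times, 4 of them on the gene's strand and 2 as its reverse complement ATTGG, and does not overlap the E-box. CCAAT was found in 32.9% of all windows, and 10 windows (0.0299%) held 6 or more matches. These matches describe the letters of the window and say nothing about which factor was bound in these cells.

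Levels are given as CPM, the counts of a gene scaled to a common library size by the trimmed mean of M-values (TMM) over the identifiers in all 24 files. Txnip in DMSO-treated OLs stood at 33.6, 64.2, 31.0 and 24.7 CPM in replicates 1 to 4. In DTG-treated OLs it stood at 2.74, 11.0, 4.02 and 2.51 CPM, from 36, 122, 52 and 40 counts. The ranges do not overlap, and replicate 2 was the highest library of both groups. Txnip in untreated OLs stood at 27.7, 48.5, 32.1 and 24.6 CPM, again with replicate 2 highest and replicate 4 lowest. Under each of the 3 treatments of OLs, replicate 2 thus had the highest CPM of Txnip and replicate 4 the lowest. This order depends on the scaling: relative to the ERCC RNA, replicate 4 was highest in untreated OLs, replicate 1 with DMSO and replicate 2 with DTG.

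Arrdc4 in DMSO-treated OLs stood at 13.4, 15.1, 11.5 and 8.40 CPM. In DTG-treated OLs it stood at 2.74, 1.63, 3.01 and 3.08 CPM, from 36, 18, 39 and 49 counts, below every other library of the series. In untreated OLs it stood at 11.4, 17.8, 11.1 and 14.9 CPM. In CPM, replicate 2 was the highest OL library for Arrdc4 without treatment and with DMSO, and the lowest with DTG. Relative to the ERCC RNA, replicate 4 was highest in untreated OLs and replicate 1 with DMSO, while replicate 2 was still the lowest with DTG. In bulk RNA, fewer cells of a type and less RNA per cell cannot be told apart.

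In OPCs, Txnip stood at 22.3, 36.2, 17.7 and 26.1 CPM in untreated OPCs and at 21.6, 27.1, 22.7 and 37.8 CPM in DMSO-treated OPCs. In DTG-treated OPCs it stood at 13.03, 15.4, 12.9 and 27.6 CPM. The first 3 of these lie below all DMSO-treated OPCs, and replicate 4 lies within their range. Arrdc4 stood at 10.7, 18.5, 13.6 and 8.30 CPM in untreated OPCs, at 11.5, 13.6, 17.4 and 8.69 CPM in DMSO-treated OPCs and at 6.57, 13.5, 11.0 and 8.28 CPM in DTG-treated OPCs. For Arrdc4 the 3 ranges of the OPCs overlap.

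**Figure D1:**
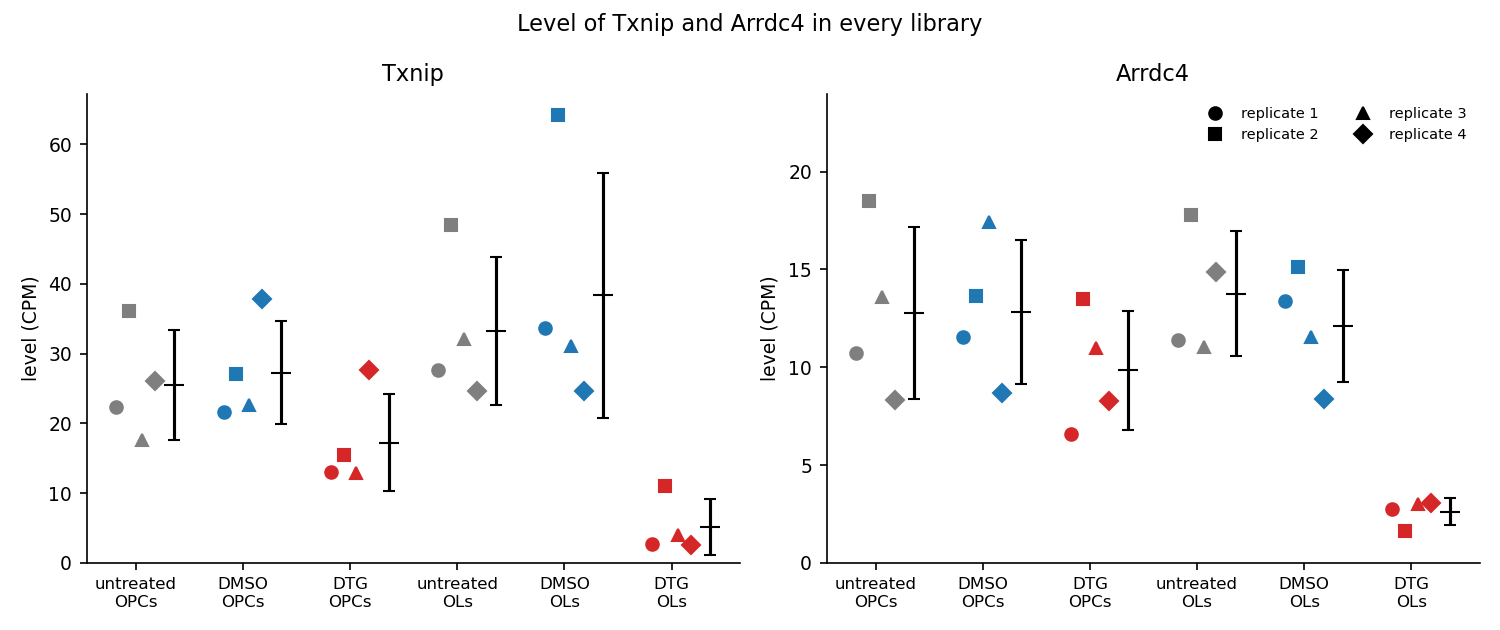
Level in CPM (y axes, starting at 0) of Txnip (left) and Arrdc4 (right) in each of 24 libraries, by condition (x axes). Each marker shape is a replicate number, and the bar beside each group is the mean with its SD (n = 4). The 4 DTG-treated OL libraries lie between 2.51 and 11.0 CPM for Txnip and between 1.63 and 3.08 CPM for Arrdc4.

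Ordered by mean, Txnip was highest in DMSO-treated OLs (38.4 ± 17.6 CPM, SD, n = 4), followed by untreated OLs (33.2 ± 10.6), DMSO-treated OPCs (27.3 ± 7.41), untreated OPCs (25.5 ± 7.87), DTG-treated OPCs (17.2 ± 7.01) and DTG-treated OLs (5.07 ± 4.02). For Arrdc4 the order was untreated OLs (13.8 ± 3.18), DMSO-treated OPCs (12.8 ± 3.68), untreated OPCs (12.8 ± 4.39), DMSO-treated OLs (12.1 ± 2.88), DTG-treated OPCs (9.84 ± 3.05) and DTG-treated OLs (2.61 ± 0.675). In both orders only the last step, from DTG-treated OPCs to DTG-treated OLs, separates ranges that do not overlap. All other neighbours overlap and differ by less than the larger of their SDs, apart from untreated and DTG-treated OPCs for Txnip, whose means differ by 8.30 CPM with SDs of 7.87 and 7.01. DTG-treated OLs thus came last for each gene. They also came last when levels were scaled to the ERCC RNA, while the 3 OPC groups then stood above the 3 OL groups for each gene.

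Among the genes detected in a library, the median percentile of Txnip in OLs was 63.1 with DMSO and 29.3 with DTG. That of Arrdc4 was 40.6 and 22.9. Per kilobase of exon, the scale on which the 2 genes can be compared with each other, Txnip was the more abundant RNA, at 13.9 ± 6.38 CPM per kilobase against 2.83 ± 0.672 for Arrdc4 in DMSO-treated OLs (SD, n = 4). Its ratio to Arrdc4 on this scale averaged between 2.97 in DTG-treated OPCs and 4.81 in DMSO-treated OLs. With DTG in OLs the ratio was 1.55, 10.5, 2.07 and 1.27 in replicates 1 to 4. In CPM, replicate 2 of the DTG-treated OLs was thus the highest of the 4 for Txnip and the lowest for Arrdc4.

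The comparison that chose the pair, DTG-treated against DMSO-treated OLs, asks how the drug changes RNA when it is present through proliferation and differentiation. A gene was called when its adjusted p-value was under 0.05 and its log2 fold change above 1 or below -1. By this rule 71 of 12710 genes tested (0.559%) were called, 45 higher and 26 lower. With the replicate number as a block, 168 were called, 95 higher and 73 lower. With ERCC scaling, which moved the median of all genes to 0.44, 17 were called, 16 higher and 1 lower. The log2 fold change of Txnip was -2.96 (standard error 0.442), which leaves 12.9% of the level with DMSO. That of Arrdc4 was -2.21 (0.264), which leaves 21.6%. Ranked by fold change from the lowest, Txnip was number 2 and Arrdc4 number 8 of the 12710 genes, but number 4 and 18 with all 24 libraries in 1 fit and number 114 and 475 without the filter on low counts, and Arrdc4 was number 17 without replicate 2 of the DTG-treated OLs. These values describe the choice and are not evidence for it. Pfkl and Gpd1, 2 genes of glucose metabolism described further on, were also among the 26 lower genes.

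Within replicate numbers, the level of Txnip with DTG was 8.16%, 17.2%, 12.95% and 10.2% of the level with DMSO. That of Arrdc4 was 20.5%, 10.7%, 26.1% and 36.6%. Each gene was lower in 4 of 4 pairs, and replicate 2, in which the most Txnip was kept, lost the most Arrdc4. Without the DTG-treated library of replicate 2, the log2 fold change was -3.64 (0.354) for Txnip and -2.05 (0.265) for Arrdc4. With the replicate number as a block, the standard error for Txnip was 0.207 around a log2 fold change of -3.07, and that for Arrdc4 was 0.263 around -2.19.

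**Figure D2:**
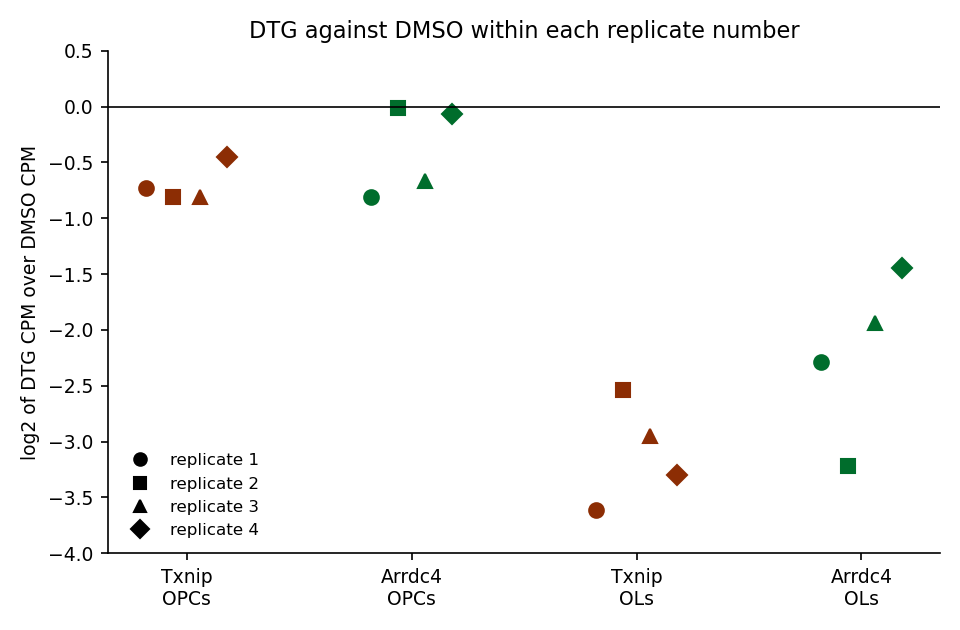
Log2 of the level with DTG over the level with DMSO (y axis) for each gene and stage (x axis). Each marker is 1 replicate number. All 16 markers lie at or below 0, between -0.81 and -0.015 in OPCs and between -3.62 and -1.45 in OLs.

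OPCs exposed to DTG for 24 hours give the response of the pair in libraries that their choice did not use. Txnip was at 63.5% of its level with DMSO, or -0.66 on the log2 scale (standard error 0.301), and it did not pass the test (edgeR's quasi-likelihood test, Benjamini-Hochberg adjusted p = 0.906). Arrdc4 was at 76.9%, or -0.38 (0.296), with the same adjusted p. None of the 13270 genes tested was called (0%) by edgeR or by DESeq2's Wald test, and 66 and 63 had an unadjusted p under 0.05. That number was 889 with the replicate number as a block, 869 without replicate 3 of the DMSO-treated OPCs, 251 without replicate 4 of the DTG-treated OPCs and between 26 and 97 without each other library.

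Txnip was lower with DTG in each of the 4 OPC pairs, at 60.4%, 57.1%, 56.9% and 73.1% of its level with DMSO. Arrdc4 was at 56.9%, 99.0%, 63.1% and 95.2%, so that the decrease was seen in replicates 1 and 3, and the other pairs hardly differed. With the replicate number as a block, the log2 fold change of Txnip was -0.69 (0.145; edgeR's quasi-likelihood test, adjusted p = 0.503) and that of Arrdc4 -0.39 (0.199, same adjusted p). Without the DTG-treated library of replicate 4, the highest of its group, that of Txnip was -0.98 (0.255, adjusted p = 0.564). With 1 library left out at a time, Txnip ran from -0.98 to -0.46 and Arrdc4 from -0.57 to -0.19. With ERCC scaling, which moved the median of all genes to 0.31, Txnip was at -0.29 and Arrdc4 at -0.17. Over all alternatives the adjusted p ran from 0.488 to 1 for Txnip and from 0.503 to 1 for Arrdc4.

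DTG-treated against untreated OPCs gave like values, and this comparison shares the DTG-treated libraries with the previous one. The log2 fold change was -0.56 (standard error 0.31) for Txnip and -0.37 (0.316) for Arrdc4 (adjusted p = 0.997 for each, edgeR's quasi-likelihood test). Txnip was lower with DTG in 3 of 4 pairs and Arrdc4 in 4 of 4. With 1 library left out at a time, Txnip ran from -0.88 to -0.38 and Arrdc4 from -0.56 to -0.17. With ERCC scaling, which moved the median of all genes to 0.35, Txnip was at -0.22 and Arrdc4 at -0.03. Of 12269 genes tested, 0 were called (0%), also by DESeq2's Wald test, and 173 had an unadjusted p under 0.05 in edgeR. That number was 457 with the replicate number as a block, 1631 without replicate 3 of the untreated OPCs, 351 without replicate 4 of the DTG-treated OPCs and between 66 and 227 without each other library.

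The vehicle alone left both genes near their untreated level in OPCs. Against untreated OPCs, the log2 fold change with DMSO was 0.10 (standard error 0.261) for Txnip and 0.01 (0.312) for Arrdc4 (adjusted p = 1 for each, edgeR's quasi-likelihood test). Of 12182 genes tested, 0 were called (0%), also by DESeq2's Wald test, and 70 had an unadjusted p under 0.05 in edgeR, between 36 and 134 with 1 library left out. In OLs, the same contrast gave 0.18 (0.313) for Txnip and -0.21 (0.234) for Arrdc4, as a description, since it shares the DMSO-treated OLs. There 0 of 11893 genes were called (0%) in edgeR and in DESeq2's Wald test, with 871 at an unadjusted p under 0.05 in edgeR, between 462 and 1285 with 1 library left out. With ERCC scaling, which moved the median of all genes to -0.42, the value of Txnip turned to -0.09, still 0.34 above that median. When the DMSO-treated OL library of replicate 2 was left out, the value of Txnip turned to -0.18.

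DTG-treated against untreated OLs, which shares the DTG-treated libraries with the contrast that chose the pair, gave a log2 fold change of -2.72 (standard error 0.476) for Txnip and -2.38 (0.264) for Arrdc4. In this comparison 31 of 11909 genes (0.26%) were called, and 107 with the replicate number as a block. Without replicate 2 of the DTG-treated OLs, the log2 fold change was -3.42 (0.326) for Txnip and -2.22 (0.246) for Arrdc4. The fall of the pair in OLs thus had about the same size against either set of controls.

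Differentiation without treatment changed many genes and left the pair without a call. From untreated OPCs to untreated OLs, 2996 of 12158 genes tested (24.6%) were called, 1391 higher and 1605 lower. Txnip differed by 0.37 on the log2 scale (standard error 0.281; edgeR's quasi-likelihood test, adjusted p = 0.326), with a higher level in OLs in 3 of 4 pairs. That of Arrdc4 was 0.10 (0.295, adjusted p = 0.817), higher in 2 of 4 pairs. Both signs turned when libraries were scaled to the synthetic ERCC RNA added to each sample, to -0.60 for Txnip and -0.87 for Arrdc4. This scaling moved the median of all genes to -0.995 on the log2 scale, so relative to that median both genes were still higher, by 0.39 and 0.13. The calls moved with it, to 3602 genes, 361 higher and 3241 lower.

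Between stages under the same treatment, which is a description since the OL libraries are those that chose the pair, the log2 fold change from OPCs to OLs with DMSO was 0.52 (standard error 0.296) for Txnip and -0.06 (0.274) for Arrdc4. With DTG it was -1.77 (0.469) and -1.90 (0.311). The share of all genes called was 32.3% with DMSO and 39.3% with DTG. With DMSO, the OLs thus held 143% of the OPC level for Txnip, with pairs between 65.3% and 237%, and 95.9% for Arrdc4. With DTG they held 29.4% for Txnip, with pairs between 9.10% and 71.4%, and 26.7% for Arrdc4. Without replicate 2 of the DTG-treated OLs the value for Txnip was 18.0%. With ERCC scaling all 4 of these values were below 0 and the median of all genes was at -1.48 and -1.35.

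**Figure D3:**
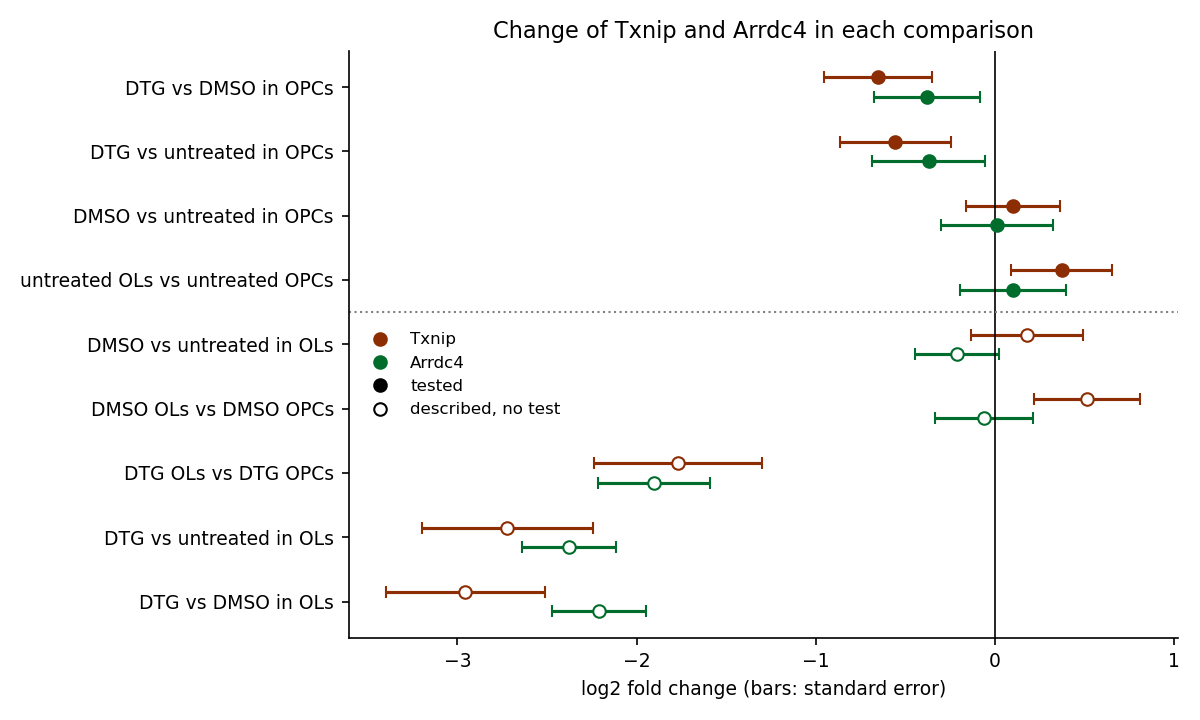
Log2 fold change with its standard error (x axis) of Txnip and Arrdc4 in 9 comparisons (y axis). Filled markers were tested and open markers are descriptions. The 3 comparisons that set DTG-treated OLs against another group lie between -2.96 and -1.77 for Txnip and between -2.38 and -1.90 for Arrdc4, and all others lie between -0.66 and 0.52.

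Across libraries, the levels of Txnip and Arrdc4 were correlated more closely in OLs than in OPCs, a difference that was not tested. Over the 12 OL libraries the correlation of their log2 CPM was 0.856 (Pearson) and 0.804 (Spearman), and without the 4 DTG-treated libraries it was 0.638 and 0.548 (n = 8). Over the 12 OPC libraries it was 0.183 and 0.119, and without DTG -0.08 and 0.02 (n = 8). These are descriptions, since the pair was chosen on part of these libraries, which also share a medium.

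**Figure D4:**
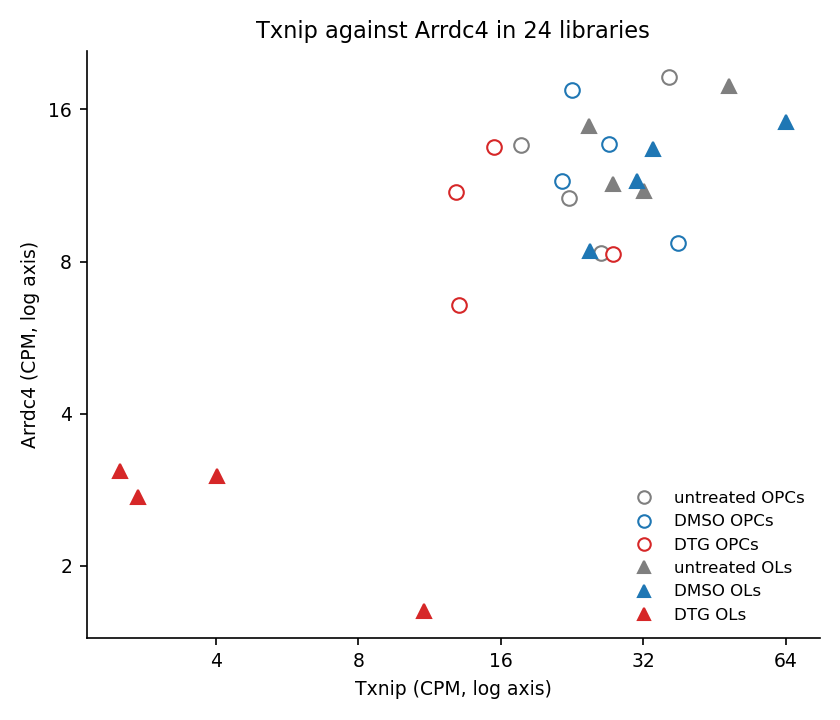
Txnip (x axis) against Arrdc4 (y axis), both in CPM on log axes, in 24 libraries. Open circles are OPCs and filled triangles are OLs. The 4 DTG-treated OL libraries lie below 3.1 CPM of Arrdc4, apart from the other 20, and replicate 2 among them lies to the right with 11.0 CPM of Txnip.

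The genes most like the pair were sought over the 22 libraries of 1 annotation, by the Pearson correlation of log2 CPM, among 11456 genes with a mean log2 CPM of at least 1. A symbol was at hand for 1687 of them, all of which the study lists as changed from OPCs to OLs with DMSO or with DTG in OLs, in groups that make up 12 of the 22 libraries. Of all 11456 genes, Arrdc4 had the correlation number 4 from the top with Txnip (0.794), and Txnip the one number 2 with Arrdc4. These ranks follow from the choice of the pair, since the 4 DTG-treated OL libraries that chose it are among the 22. Over the 18 others, an alternative chosen after seeing the data, the correlation was 0.424, number 3856 for Txnip and number 787 for Arrdc4. Among genes with a symbol, Arrdc4 was followed for Txnip over the 22 libraries by Arpc1b (0.732), a subunit of the actin-branching Arp2/3 complex, and Fam163a (0.679). Next came Chga (0.60), which encodes the secretory granule protein chromogranin A, and Ccsap (0.60). Of all 11456 genes these 4 were number 8, 14, 31 and 33. For Arrdc4 the highest of all was Atp10b (0.801), a lipid-transporting P-type ATPase. Among genes with a symbol, Klhl29 (0.648), Ccsap (0.628) and Chga (0.613) followed Txnip, but they were number 50, 56 and 74 of all genes. Each of the genes named for Txnip or Arrdc4 had its lowest mean in DTG-treated OLs. Scaled over these libraries, the level of Atp10b was 3.69 ± 1.55 CPM with DMSO and 0.652 ± 0.199 CPM with DTG in OLs (SD, n = 4), and that of Arpc1b was 248 ± 67.3 and 103 ± 22.8 CPM.

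The genes at the other end rose where the pair fell. Here too only genes with a symbol are named. For Txnip the lowest correlations among them were those of Atf4 (-0.88), the transcription factor of the integrated stress response, Asns (-0.849), which makes asparagine, Slc7a11 (-0.816), the cystine transporter, the potassium channel gene Kcna2 (-0.779) and Stc2 (-0.772), a secreted glycoprotein. Atf4 had the lowest value of all 11456 genes. For Arrdc4 they were those of Asns (-0.891, the lowest of all), Eif4ebp1 (-0.868), an inhibitor of translation initiation, Rcan2 (-0.832), a regulator of calcineurin, Nmnat3 (-0.827), an enzyme of NAD synthesis, and Chac1 (-0.816), which degrades glutathione. In OLs, the level of Atf4 was 161 ± 20.8 CPM with DMSO and 352 ± 72.6 CPM with DTG, and that of Asns was 46.0 ± 15.5 and 179 ± 28.3 CPM. All 9 genes of this end had their highest mean in DTG-treated OLs. In the 11 OL libraries alone, the correlation of Txnip with Atf4 was -0.945 and that of Arrdc4 with Asns -0.898. Over the 18 libraries without DTG-treated OLs these correlations were -0.419 and -0.454, and those of Chga, Ccsap and Klhl29 with Arrdc4 turned to -0.571, -0.444 and -0.401. The likeness of these genes to the pair thus rests largely on the DTG-treated OLs, while Fam163a (0.716), Arpc1b (0.689) and Kcna2 (-0.707) had correlations of about the same size with Txnip without them.

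**Figure D5:**
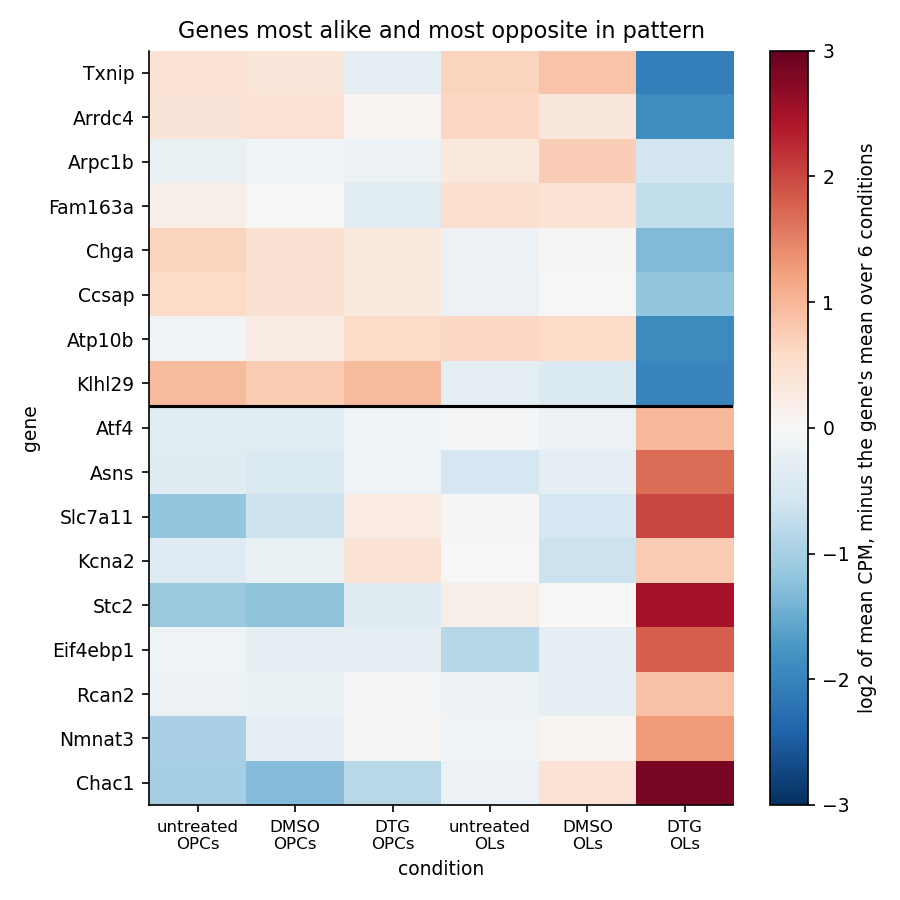
Log2 of the mean CPM of each condition minus the mean of the gene over 6 conditions (colour), for the pair and the genes with the highest (above the line) and lowest (below it) correlation with either, among genes with a symbol (rows), by condition (columns). DTG-treated OLs hold the lowest value of every row above the line, -2.05 for Txnip and -1.86 for Arrdc4, and the highest of every row below it, up to 2.86 for Chac1.

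Of the other genes of the pathway, those with an identifier were few. Lists of alpha-arrestins, the MondoA and ChREBP network, their targets, glucose entry, glycolysis, thioredoxins, Nedd4 ligases and insulin signalling, together with the cell type markers, name 160 genes, of which 19 could be matched, and the others, among them the glucose transporters and the beta-arrestins, were not analysed here. A match needs a symbol from the study's own lists of changed genes, drawn from DMSO-treated OPCs and from DMSO-treated and DTG-treated OLs, so the matched genes are not independent evidence of a direction.

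With DTG in OLs, 2 of the 9 pathway genes tested other than the pair were called, and both were lower. The share of all genes called was 0.559%, but these 9 genes were matched through lists of genes changed in the same OL libraries or between stages, so that the count is not independent of the matching and the 2 cannot be compared. Pfkl, a subunit of the glycolytic enzyme phosphofructokinase, fell by 1.21 on the log2 scale (standard error 0.248; edgeR's quasi-likelihood test, adjusted p = 0.0386). Its libraries held 187, 393, 333 and 221 CPM under DMSO, but 114, 170, 124 and 83.6 CPM under DTG, so that the groups do not overlap. Gpd1, the glycerol-3-phosphate dehydrogenase that links glycolysis to lipid synthesis, fell by 1.20 (0.187; edgeR's quasi-likelihood test, adjusted p = 0.01). Its libraries held 58.2, 57.0, 36.0 and 62.9 CPM under DMSO, but 26.5, 26.0, 19.9 and 21.4 CPM under DTG, and these groups do not overlap either. With ERCC scaling, which moved the median of all genes to 0.44, neither was called, at -0.75 and -0.88. With 1 library left out at a time, which for the genes of the lists was added after seeing the data, Gpd1 was called in 8 of 8 fits and Pfkl in 2 of 8, at log2 fold changes between -1.41 and -1.01.

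The 7 others were not called. Acacb, an acetyl-CoA carboxylase of fatty acid metabolism that is also a known ChREBP target, went the other way from the pair, by 1.17 on the log2 scale (standard error 0.29, adjusted p = 0.0906, edgeR's quasi-likelihood test). It was called higher with the replicate number as a block, at 1.14 (adjusted p = 0.00609), and by DESeq2's Wald test, at 1.18 (adjusted p = 0.00842). Txn1, the thioredoxin that Txnip binds, had 185 ± 47.3 CPM under DMSO and 280 ± 114 CPM under DTG (0.59 on the log2 scale, standard error 0.275; edgeR's quasi-likelihood test, adjusted p = 0.404). Arrdc3, the third alpha-arrestin with an identifier, stood at 2.85 ± 1.63 and 3.29 ± 1.17 CPM (0.19, standard error 0.467), Klf10, a further known target, at 15.2 ± 2.44 and 11.7 ± 2.29 CPM, and Mga, a partner of Max in the same network of factors, at 7.89 ± 1.47 and 9.86 ± 3.71 CPM. In OPCs, 0 of 10 pathway genes were called with DTG against DMSO, beside 0 of all 13270 genes tested (0%). The median log2 fold change of the pathway genes was -0.08, beside 0.00 for all genes.

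Between untreated OPCs and OLs, 9 of the 10 pathway genes were called, beside 24.6% of all genes. These 10 have a symbol because the study lists them as changed between DMSO-treated OPCs and OLs or with DTG in OLs. The lists rest on other libraries than the untreated ones, but largely on the same change of stage, so that the count is not independent of how the genes were matched. Gpd1 (log2 fold change 2.46, standard error 0.291), Acacb (1.70, 0.507) and Pfkl (1.71, 0.34) rose, the last 2 without a call under ERCC scaling. Acacb also lost its call without replicate 2 of the untreated OPCs (1.63) and without replicate 4 of the untreated OLs (1.14). Arrdc3 fell by 2.71 on the log2 scale (standard error 0.641), from 26.0 ± 26.4 to 4.01 ± 1.55 CPM. Its OPC libraries stood at 9.89, 16.7, 65.4 and 12.0 CPM, and without replicate 3, one of those with the other annotation, it fell by 1.68 (0.335) and was still called. Txn1 fell by 2.10 (0.336), from 760 ± 258 to 177 ± 66.8 CPM. Klf10, the monocarboxylate transporter gene Slc16a7, the ubiquitin ligase gene Hecw2 and the growth factor receptor gene Igf1r fell too, and Mga was not called (adjusted p = 0.566, edgeR's quasi-likelihood test).

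Markers of the cell types moved with stage and, in part, with the drug. Of the OL markers Mbp, Mog and Enpp6, the 3 of 8 with an identifier, all rose from untreated OPCs to OLs, and Pdgfra and Cspg4, the 2 of 6 OPC markers, fell. Each was called, beside 24.6% of all genes. These markers were matched through the study's lists of changed genes, so that this count is not independent of the matching. The summed level of the OL markers was 7797, 11870, 10670 and 4479 CPM in DMSO-treated OLs and 2546, 4429, 4527 and 1817 CPM in DTG-treated OLs, with Mbp the most abundant in each library and none at 0. With DTG in OLs, Mog was called (log2 fold change -1.01, standard error 0.164, adjusted p = 0.0116, edgeR's quasi-likelihood test), but in only 2 of 8 fits with 1 library left out, which ran from -1.11 to -0.94. Mbp was not (-1.40, 0.332, adjusted p = 0.0772), and was with the replicate number as a block (-1.41, adjusted p = 1.2e-06). The same held for Enpp6 (-1.08, 0.306, adjusted p = 0.131, and -1.10 with adjusted p = 1.23e-05 in the block). With ERCC scaling none of the 3 was called. The study, which used DESeq2's Wald test, names Enpp6, Mbp and Mog among the transcripts reduced with DTG in OLs. It also found Mbp significantly lower by quantitative PCR. The part of these markers in the result was not tested.

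The summed level of the OPC markers was 237 ± 77.4 CPM in DMSO-treated and 217 ± 84.5 CPM in DTG-treated OLs. The neuron markers Snap25 and Stmn2, 2 of 5 with an identifier, summed to 6.43 ± 2.36 and 5.03 ± 3.14 CPM in the same groups and to 41.0 ± 13.8 CPM in DMSO-treated OPCs, with none at 0 in any library. Markers of astrocytes, microglia, fibroblasts and endothelial cells had no identifier and were not analysed here.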

How the data were processed

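RNA from 24 cultures was sequenced. According to the labels and the methods of the study, poly(A) RNA was enriched, synthetic ERCC RNA was spiked into each sample, and reads were aligned with STAR 2.5.2b and counted on exons with featureCounts (Subread 1.5.2). The authors deposited raw counts per gene and library, with 92 ERCC transcripts, without normalization or pooling. ERCC took between 1.06% and 7.19% of a library.

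The statistics were run in R 4.3.3, using edgeR 4.0.16 on top of limma 3.58.1, and DESeq2 1.42.0 as an alternative. Each comparison used its 8 libraries without ERCC rows, filterByExpr, TMM and the quasi-likelihood F test, with Benjamini-Hochberg adjustment over all genes tested. Figures were drawn with Python 3.11.15 and matplotlib 3.10.9. The fits were also tested on simulated data. The pair, the lists and the tests were chosen with earlier results of these data known. Genes were named by a rule: the pair, list genes that were called or are central to their list, and per member the 5 highest and 5 lowest correlations (prior count 2) among genes with a symbol. Symbols came from the study's supplementary tables, which pair 2107 identifiers.

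Same-numbered libraries carry the same date code and were compared as pairs, although no source states that they share a litter. The main fits did not use this pairing, and the replicate block was an alternative. Their deviations from the group means correlated at 0.47, 0.44, 0.50 and -0.05 between DMSO-treated and DTG-treated OLs, and at 0.78, -0.17, 0.63 and 0.87 in OPCs. Between stages they correlated at 0.43, 0.03, 0.09 and 0.57 with DMSO and at 0.39, -0.09, 0.06 and -0.42 with DTG. Replicates 2 and 3 share a date. The alternatives tried were DESeq2, its size factors, ERCC scaling, no filter, the replicate block, all 24 libraries, no minimum fold change, the larger annotation with replicate 3 left out of both groups, and leaving out each library; leaving out libraries for the list genes, and the DTG-treated OLs for the correlations, was added after seeing the data. In DTG-treated OLs the pair had between 18 and 122 counts per library.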

Additional observations from a re-analysis of the deposited data

How the results depend on the processing

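Of 280 fold changes of the pair under the alternatives, 262 kept their direction and call, or moved by less than the spread between replicates. The alternative without a minimum fold change reuses the main fit, so its values could not move. In the 4 tested comparisons neither gene was called in the main fit. Only a turned sign or a new call could count against them there, whatever the change in size. Scaling to ERCC RNA turned the sign between untreated OPCs and OLs (-0.60 for Txnip, -0.87 for Arrdc4), and moved Arrdc4 to -1.76 in DTG-treated against DMSO-treated OLs, the pair to -0.76 and -1.56 from OPCs to OLs with DMSO, and to -3.18 and -3.15 with DTG. It moved the median of all genes by construction. For DMSO against untreated OPCs, values near 0 turned sign: Arrdc4 was at -0.0020 with DESeq2, at -0.0028 with its size factors and at -0.14 in the larger annotation with replicate 3 left out of both groups. With 1 library left out at a time, the values ran from -0.20 to 0.20 for Arrdc4 and from -0.094 to 0.28 for Txnip in that comparison, and from -0.058 to 0.32 for Arrdc4 between untreated OPCs and OLs. Among the described values, Txnip ran from -0.18 to 0.44 for DMSO against untreated OLs, and was at -0.087 with ERCC scaling, and Arrdc4 ran from -0.20 to 0.11 from OPCs to OLs with DMSO. In the 4 tested comparisons neither gene was called under any alternative.

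The replicate block changed no call of the pair in the 4 tested comparisons. It moved the number of genes called from 71 to 168 in DTG-treated against DMSO-treated OLs and from 31 to 107 against untreated OLs. DESeq2 called 127 and 106, and ERCC scaling 17 and 10. In the first of these, 112 were called without the filter, 108 without a minimum fold change, 34 with all 24 libraries in 1 fit, 29 without the DMSO-treated OL culture of replicate 2 and 46 without replicate 3 of the DTG-treated OLs. In the second, 12 were called in the larger annotation with replicate 3 left out of both groups, 44 without replicate 3 of the untreated OLs and between 5 and 14 without each of the other 7 libraries. ERCC scaling called 49 genes for DMSO against untreated OLs, 6526 between stages with DMSO and 8327 with DTG, where no minimum fold change gave 6848 and 8215. By Spearman correlation 3, 3, 2 and 2 of the 5 genes named at the highest and lowest end for Txnip and Arrdc4 remained, and in OLs alone 0, 0, 1 and 1. The cause of these moves was not tested. Arrdc4 had as few as 18 counts in a DTG-treated OL library, and what this does to its precision was not tested. Its SD was 25.8% of its mean in DTG-treated OLs and 23.8% in DMSO-treated OLs. For genes of the lists without a call, the sign turned when 1 library was left out: between untreated OPCs and OLs Mga ran from -0.62 to 0.33, and with DTG in OLs Arrdc3 ran from -0.135 to 0.45, Igf1r from -0.15 to 0.0097, Pdgfra from -0.49 to 0.044, Cspg4 from -0.091 to 0.41 and Snap25 from -0.27 to 0.65.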
